A study of Rattus norvegicus with 28 samples.

Results

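Bulk RNA-seq recorded how Med14 S983A cells respond to 1 h of forskolin. The cells belong to INS-1, a line of insulin-secreting tumour cells from the rat, and carried the S983A knock-in, which replaces a serine of Med14, the scaffold subunit of the Mediator complex, with alanine. The comparison took 4 of the 28 libraries of the series, namely the 2 libraries of cells given 10 µM forskolin (FSK) for 1 h and the 2 control (CON) libraries of the same genotype. The other libraries used here were WT CON and WT 1 h FSK, and, in Med14 S983A cells, the GLP-1 receptor agonist exendin-4 (Ex-4) at 10 nM for 1 h and FSK for 8 h and 16 h. All cells had been washed and placed in serum-free medium before treatment, in control groups too, and the time at which the control cells were collected is not given in the sources used here. Knock-in cells were obtained by Cas9 editing and sorting of single cells, so that an edited line is a clone. The study worked with more than 1 such line, and which line each library came from is not given in the sources used here. The study's methods call the replicates biological without saying whether they were separate cultures or separate knock-in lines, so p-values measure the spread between these libraries, whatever its source.

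FSK acts directly on adenylyl cyclase and raises cAMP, which releases the catalytic subunits of protein kinase A (PKA). PKA phosphorylates CREB, a factor that sits at cAMP response elements (CREs) in promoters, and the first genes to rise are immediate early genes such as the AP-1 and NR4A factors, together with inhibitors of the same pathway. In beta cells GLP-1 reaches this pathway through its receptor. Mediator links factors such as CREB to RNA polymerase II, and the question of the comparison was how the early cAMP response runs when that serine of Med14 cannot be phosphorylated.

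Sequences of 3 promoters are shown because they carry the elements that CREB binds and belong to genes with large rises (Nr4a1 and Sik1) or with the full palindromic element (Btg2). They are RefSeq sequences of the GRCr8 build, 250 bases before the annotated start, and capitals mark TGACG or its complement CGTCA, the core of the CRE, on either strand. Nr4a1 lies at chr7:134259888-134260137 on the plus strand, Sik1 at chr20:9958647-9958896 on the minus strand and Btg2 at chr13:48087691-48087940 on the minus strand.
Nr4a1: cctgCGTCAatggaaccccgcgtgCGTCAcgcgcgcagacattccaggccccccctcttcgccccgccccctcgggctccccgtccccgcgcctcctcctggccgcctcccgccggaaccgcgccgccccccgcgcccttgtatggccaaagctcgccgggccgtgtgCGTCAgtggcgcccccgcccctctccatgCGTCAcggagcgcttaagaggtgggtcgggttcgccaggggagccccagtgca
Sik1: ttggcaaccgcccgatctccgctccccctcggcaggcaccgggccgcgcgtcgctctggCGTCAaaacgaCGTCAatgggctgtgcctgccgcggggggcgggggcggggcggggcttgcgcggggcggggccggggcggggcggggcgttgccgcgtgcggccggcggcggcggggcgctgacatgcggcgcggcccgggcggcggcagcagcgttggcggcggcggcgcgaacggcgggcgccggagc
Btg2: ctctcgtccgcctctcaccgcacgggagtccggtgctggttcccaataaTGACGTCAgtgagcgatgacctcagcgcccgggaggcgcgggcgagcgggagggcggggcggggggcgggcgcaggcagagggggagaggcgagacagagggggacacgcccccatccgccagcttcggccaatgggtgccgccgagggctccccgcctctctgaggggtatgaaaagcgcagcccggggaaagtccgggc
The Nr4a1 window held 4 CRE cores, which begin 246, 226, 82 and 53 bases before the start. The Sik1 window held 2, beginning 191 and 180 bases before the start, and the capitals in Btg2 form the full 8-base element TGACGTCA. Of 8911 windows of tested genes, 250 bases before to 50 after a start, 33.4% held a CRE core and 3.38% held the full element, so a core by itself was common. The 3 promoters were picked for these elements. Windows of Fosl2, Fosb and Klf4, also large rises, held no CRE core. Those of Nr4a2, Junb, Rgs2 and Sstr1 held 1 each, while windows of Crem and Maff held the full element.

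The mature arms of 2 microRNAs encoded side by side on chromosome 10 are shown because the rows of their hairpins stood higher after FSK than in CON. Capitals mark the seed, bases 2 to 8, which pairs with target RNA, and the 3p arms share the seed AACAGUC.
rno-miR-132-3p: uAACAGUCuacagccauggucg
rno-miR-212-3p: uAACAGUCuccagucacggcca
The RNA-seq rows of these loci count fragments over the hairpin and not the mature arms.

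The 4 libraries held 45095152 to 49216982 fragments, and the replicates of each group had a Pearson r of 0.998 across genes. Of 8 beta cell markers, 7 had a row and none was called. Their summed level was 75904 to 84430 TPM (a share of the library after division by transcript length) in CON and 74973 to 83226 TPM after FSK. Summed markers of other islet endocrine, acinar, duct, fibroblast, endothelial and leukocyte cells stayed between 0.0250 and 6.78 TPM in the 4 libraries. Of these, only Sox9, a duct marker, was called, at 1.22 and 1.08 TPM in CON and 2.49 and 2.62 TPM after FSK. Cpb1, Pnlip, Cela2a, Cftr, Col1a2, Col3a1, Cdh5 and Ptprc were at 0 in all 4 libraries. The other markers of these cells with a row, which were the larger number, were not at 0 throughout. The part of these markers in other results was not tested. ERCC RNA, which was spiked in per mass of RNA, made up 0.836% and 0.818% of fragments in CON and 1.03% and 0.886% after FSK. Med14 itself (rn6 NM_001191727, chromosome X, 10964035 to 11080894) had 19.6 and 20.3 TPM in CON and 20.2 and 22.2 TPM after FSK, a log2 change of 0.08 (SE 0.07, adjusted p 0.32) in limma. The edit changes a single residue, so the transcript level does not check the genotype.

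After 1 h of FSK, 328 of 10275 tested genes were higher (3.19%) and 740 were lower (7.20%) than in CON, at a limma adjusted p under 0.05 and a fold above 1.5 on the log2(TPM + 1) scale. The rises were far larger than the falls, since 95 genes rose by more than 2 on the log2 scale and 8 fell by more than 2. Immediate early factors and cAMP feedback genes led the rises, while Txnip, Myc and Klf6 led the falls. In bulk samples, fewer cells with a transcript and less of it per cell cannot be told apart. Together the higher genes took 1.07% and 1.06% of all TPM in the CON libraries and 3.56% and 3.81% after FSK. The lower genes went from 1.74% and 1.71% to 0.951% and 0.942%. Every called gene had both FSK libraries on the same side of both CON libraries, as had 1367 genes above and 5874 below among all tested. The number of falls depended on the scale, because TPM are shares of each library. The median log2 change of all tested genes was −0.11 in TPM, 0.04 after centring libraries on their medians and −0.30 with ERCC scaling. The split of 328 higher and 740 lower became 434 and 425 after centring and 266 and 1504 with ERCC scaling. Under ERCC scaling the count of falls was 1117 without FSK replicate 1 and 2212 without FSK replicate 2. All changes are given in TPM and thus relative to −0.11.

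**Figure D1:**
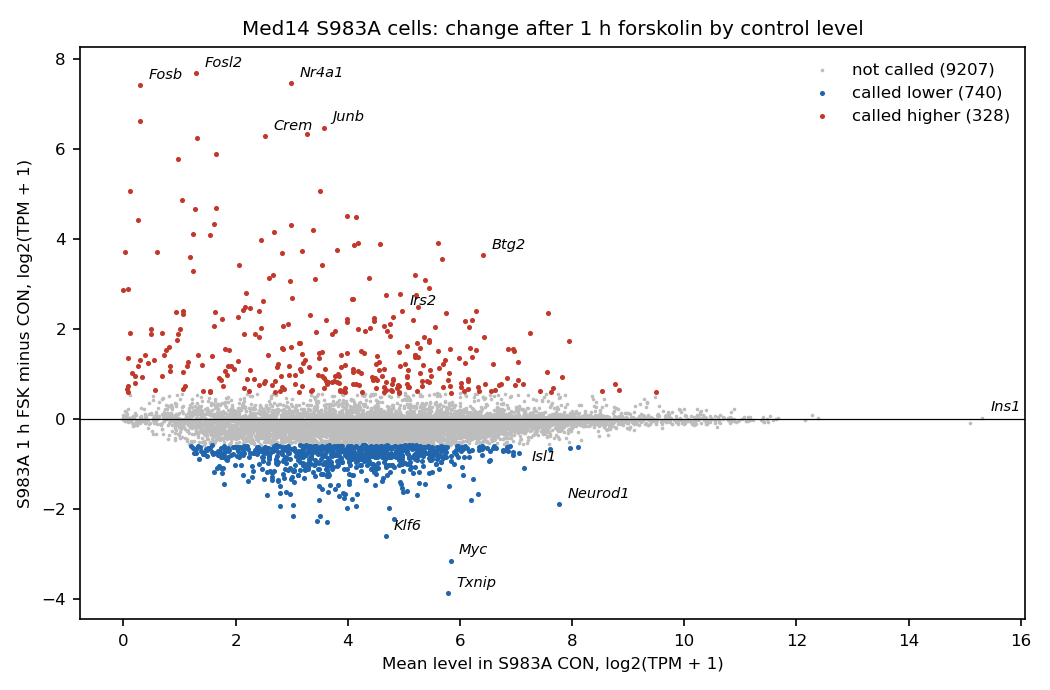
Change after 1 h FSK in Med14 S983A cells (vertical axis, difference of group means of log2(TPM + 1)) against the mean level in S983A CON (horizontal axis, log2(TPM + 1)) for 10275 genes. Red points were called higher (328), blue points lower (740). The rises reach 7.70 and the falls −3.87, and Ins1 at the right edge stays near 0.

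AP-1 factors form dimers of Fos and Jun families, and the list used here also held Atf3, Maff and Mafk. All 10 tested members were higher in Med14 S983A cells (100%, against 3.19% of all tested genes), also after centring and with ERCC scaling. Their median change was 4.21 against −0.11 over all genes. Fosl2 (rn6 NM_012954, chromosome 6, 25598936 to 25616995), a Fos family member, had the largest rise of the named genes on the log2(TPM + 1) scale, while Fosb and Nr4a3 passed it with a pseudocount of 0.1 and in the count-based tools. Its level was 1.35 and 1.57 TPM in the CON libraries and 466 and 557 TPM after FSK, a log2 change of 7.70 (SE 0.08, adjusted p 1.9e-28) in limma. Fosb (NM_001256509, chromosome 1, 80214691 to 80221417) was almost silent in CON at 0.228 and 0.228 TPM and reached 208 and 211 TPM, a change of 7.42 (SE 0.08, adjusted p 3.6e-28). The 2 FSK libraries agreed closely for Fosb, while those of Fosl2 differed by more. Junb (NM_021836, chromosome 19, 26092972 to 26094756), a Jun partner that restrains Jun, went from 10.2 and 11.7 TPM to 1094 and 1039 TPM, a change of 6.48 (SE 0.08, adjusted p 4.2e-27). Fos (NM_022197, chromosome 6, 109300433 to 109303299), the founding member of the family, went from 0.993 and 0.958 TPM to 112 and 105 TPM, a change of 5.79 (SE 0.10, adjusted p 1.9e-24). Maff, a small Maf protein without an activation domain, rose from 1.99 and 2.29 TPM to 75.6 and 86.2 TPM, by 4.70 on the log2 scale. The members with the smallest rises were Jund and Mafk, at 1.51 and 1.28, both of which were well expressed in CON. Fosl1 stood at 0 and 0.0440 TPM in CON and 12.8 and 12 TPM after FSK, so its fold rests on a level near 0.

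The 3 NR4A orphan nuclear receptors, which are classical targets of CREB, were all higher (100%, against 3.19% of all tested genes). Nr4a1 (NM_024388, chromosome 7, 142912309 to 142920215), with the 4 promoter CRE cores shown, went from 6.53 and 7.36 TPM to 1440.0 and 1363 TPM, a change of 7.46 (SE 0.08, adjusted p 3.5e-28) in limma. It was the most abundant transcript among the named rises. Nr4a3 (NM_031628, chromosome 5, 63781801 to 63821639) stood at 0.301 and 0.148 TPM in CON and 106 and 135 TPM after FSK, a change of 6.63 (SE 0.11, adjusted p 2.6e-25). Nr4a2 (NM_019328, chromosome 3, 43111936 to 43117406) went from 2.13 and 2.17 TPM to 175 and 199 TPM, a change of 5.89 (SE 0.09, adjusted p 6.6e-26). For each of the 3 receptors both FSK libraries lay above both CON libraries, as for all 328 higher genes and for 1367 of all 10275 tested genes.

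**Figure D2:**
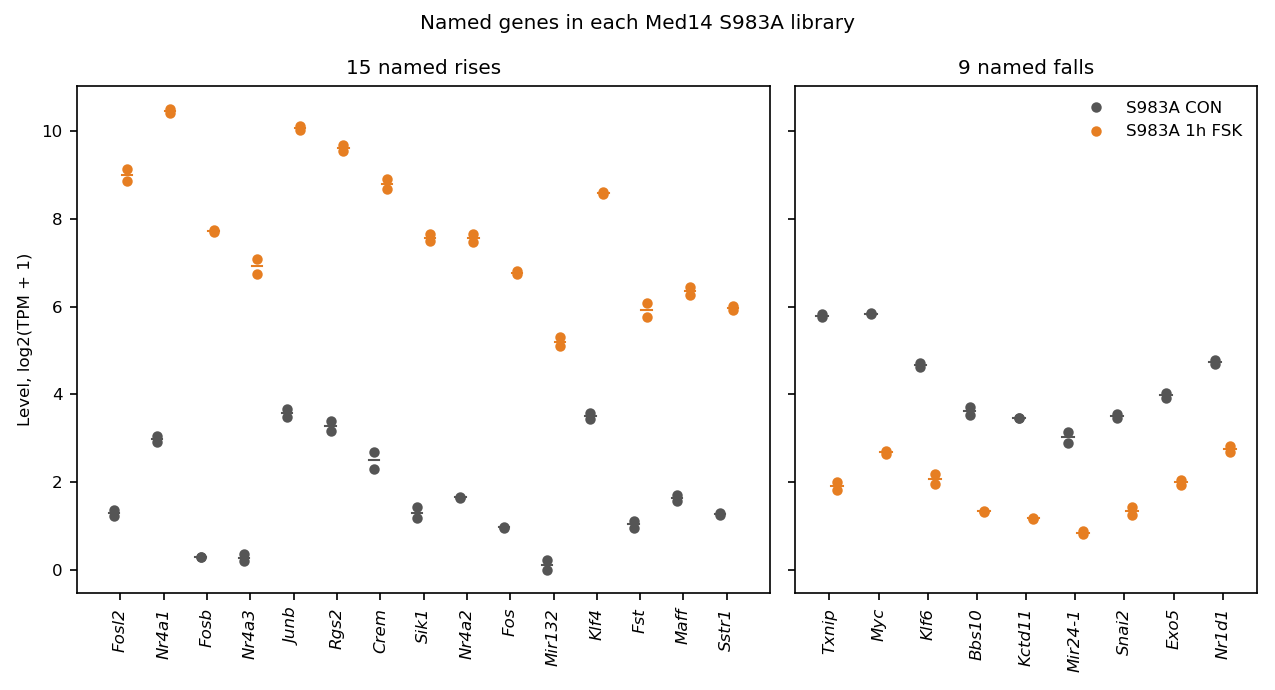
Level of the 15 named rises (left) and 9 named falls (right) in each library, as log2(TPM + 1), with CON in grey and 1 h FSK in orange. Points are libraries and short bars are group means. The groups do not overlap for any of these genes, nor for any other called gene.

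EGR, IER and KLF factors are mostly zinc finger proteins and immediate early products, and they split by direction. Of 16 tested members 7 were higher (43.8%, against 3.19% of all tested genes) and 6 lower (37.5%, against 7.20%). Klf4 (NM_053713, chromosome 5, 72283311 to 72287669), a Krüppel-like factor, rose from 9.84 and 10.9 TPM to 374 and 391 TPM, a change of 5.08 (SE 0.08, adjusted p 1.1e-25) in limma. Egr1, a zinc finger factor of the first wave, rose from 4.36 and 4.56 TPM to 86.6 and 84.4 TPM, by 3.99, and Egr4 by 3.72. Klf6 (NM_031642, chromosome 17, 67895923 to 67904918), a relative of Klf4, went the other way, from 25.4 and 23.8 TPM to 2.87 and 3.54 TPM, a change of −2.61 (SE 0.06, adjusted p 2e-21). Ier5 and Klf10 fell by 1.45 and 1.42 on the log2 scale. The rise of Klf9 (0.60) did not reach the fold minimum with ERCC scaling (0.40), nor the fall of Klf5 (−0.61) after centring (−0.46).

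Among CREB itself, its relatives and its coactivators, 1 of 8 tested genes was called, and it was higher (12.5%, against 3.19% of all). This was Crem (NM_001271102, chromosome 17, 57074525 to 57090888), which encodes the repressor ICER from an internal promoter that cAMP switches on. Crem went from 5.48 and 3.97 TPM to 409.5 and 479.5 TPM, a change of 6.29 (SE 0.08, adjusted p 3.7e-27) in limma. The table holds the transcript with the highest mean, so ICER and the longer forms of Crem were not told apart. Crtc2, a coactivator of CREB, changed by −0.26, under the fold minimum. Sik1 (NM_021693, chromosome 20, 10670747 to 10680279), a kinase that inactivates these coactivators, rose from 1.71 and 1.27 TPM to 178 and 198 TPM, a change of 6.25 (SE 0.10, adjusted p 1.9e-25). Its relative Sik3 was not called at −0.17.

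Genes that make or destroy cAMP, or carry its signal, were mostly not called. Of 18 phosphodiesterases, the enzymes that degrade cyclic nucleotides, Pde4d was higher and Pde4c lower (5.56% each way, against 3.19% and 7.20% of all genes). Pde4d went from 6.44 and 5.93 TPM to 18.5 and 22 TPM, a change of 1.56 (limma adjusted p 2.1e-14). The fall of Pde4c (−0.59) missed the fold minimum after centring (−0.44). None of 9 PKA subunits and inhibitors was called, and the largest change was that of the regulatory subunit gene Prkar1a, at 0.44. Of 9 tested incretin receptors, Gs and adenylyl cyclase genes, 1 was lower (11.1%, against 7.20% of all genes). This was Gipr, the receptor of the incretin GIP, at 101 and 97.7 TPM in CON and 57.5 and 69 TPM after FSK. Its change of −0.65 missed the fold minimum after centring (−0.50) and without FSK replicate 1 (−0.52). Glp1r, the receptor of GLP-1, had 88.9 and 89.1 TPM and 84.3 and 83.7 TPM, a change of −0.08 with an adjusted p of 0.074 in limma.

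RGS proteins end the signal of G proteins. Of 18 tested genes of the RGS, GRK and arrestin list, 2 were higher (11.1%, against 3.19% of all tested genes) and 1 was lower (5.56%, against 7.20%). Rgs2 (NM_053453, chromosome 13, 60846458 to 60849061) went from 9.49 and 7.93 TPM to 748 and 812 TPM, a change of 6.33 (SE 0.08, adjusted p 2.8e-27) in limma. Rgs16, another member, went from 35.3 and 34.8 TPM to 157 and 172 TPM, by 2.20. Rgs14 was lower at −0.62, which missed the fold minimum after centring (−0.47). No GRK or arrestin gene was called.

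Phosphatases that switch off MAP kinases, with the Sprouty inhibitors of the same pathway, were higher in 7 of 15 tested genes (46.7%, against 3.19% of all) and lower in 1 (6.67%, against 7.20%). Dusp1 rose most, from 17.3 and 16.9 TPM to 267 and 277 TPM, a change of 3.92 (SE 0.05, adjusted p 6.4e-27) in limma. Dusp4, a nuclear phosphatase, rose by 2.43, Dusp5 by 1.96 and Spry1 by 1.90. Dusp7 fell by 0.94. Proteins that recruit the machinery of mRNA decay were higher in 5 of 6 tested genes (83.3%, against 3.19% of all). Btg2, an antiproliferative gene with the full CRE shown in its promoter, went from 82.8 and 85.5 TPM to 1096 and 1037 TPM, a change of 3.65 (SE 0.05, adjusted p 2.5e-27). Tob1 and Btg1 rose by 2.35 and 1.92. Zfp36, which binds AU-rich elements, rose by 0.84.

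Among small GTPases, Rasd1, Rem2 and Gem were higher and Rnd1 and Rnd3 lower, of 7 tested (42.9% and 28.6%, against 3.19% and 7.20% of all genes). Rem2 and Gem belong to the RGK family, which restrains voltage-gated calcium channels. Rasd1 went from 22.1 and 23.4 TPM to 366 and 334 TPM, by 3.89. Rem2 went from 4.53 and 4.1 TPM to 25.9 and 28.7 TPM, by 2.41. Gem rose by 1.93. The fall of Rnd3 (−0.65) missed the fold minimum after centring (−0.50) and without CON replicate 1 (−0.57).

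Of 19 tested ID and clock genes, 8 were higher (42.1%, against 3.19% of all) and 1 was lower (5.26%, against 7.20%). ID proteins bind and block basic helix-loop-helix factors such as NEUROD1, and all 4 ID genes rose. Id4 went from 17.2 and 16.4 TPM to 379 and 417 TPM, a change of 4.49 (SE 0.06, adjusted p 1.3e-26) in limma, and Id2, Id1 and Id3 rose by 2.63, 2.08 and 0.94. Nfil3, a repressor within the clock, went from 7.05 and 6.76 TPM to 155 and 156 TPM, by 4.31. Per1 and Cry2, negative arms of the clock, rose by 3.76 and 2.49. Nr1d1 (NM_001113422, chromosome 10, 86683875 to 86690815), which encodes the clock repressor REV-ERBα, fell from 24.9 and 26.3 TPM to 6.14 and 5.45 TPM, a change of −1.97 (SE 0.08, adjusted p 3.6e-16).

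Secreted factors and signalling genes of insulin and growth factors were higher in 5 of 11 tested members (45.5%, against 3.19% of all genes) and lower in 1 (9.09%, against 7.20%). Hbegf, a ligand of the EGF receptor, went from 5.64 and 5.2 TPM to 107 and 122 TPM, a change of 4.17 (SE 0.06, adjusted p 6.6e-26) in limma. Irs2, the adaptor of the insulin receptor, went from 30.1 and 30.2 TPM to 158 and 169 TPM, by 2.40. Vgf, a granule peptide precursor, rose by 1.55, and Inhbb, an activin subunit gene, was lower by 0.81. Ppargc1a, a coactivator of metabolic genes, stood at 1.89 and 2.27 TPM in CON and 8.8 and 15.9 TPM after FSK, a change of 2.07 (SE 0.17, adjusted p 1e-10). Its FSK libraries differed more from each other than those of most named genes.

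Fst (NM_012561, chromosome 2, 46537589 to 46544452), which encodes the activin antagonist follistatin, went from 1.17 and 0.956 TPM to 53.6 and 66.8 TPM, a change of 4.88 (SE 0.09, adjusted p 1.4e-24) in limma. Sstr1 (NM_012719, chromosome 6, 79254339 to 79258611), a receptor of somatostatin coupled to inhibition of adenylyl cyclase, went from 1.39 and 1.46 TPM to 59.2 and 63.1 TPM, a change of 4.68 (SE 0.07, adjusted p 1.3e-25). Both sets of FSK libraries lay clear of CON, as did those of all 328 higher genes. Of 47 tested microRNA rows 4 were higher and 6 lower, against 3.19% and 7.20% of all tested genes. The Mir132 hairpin (NR_031878, chromosome 10, 62014995 to 62015095) stood at 0.181 and 0 TPM in CON and 33.3 and 38.3 TPM after FSK, a change of 5.08 (SE 0.21, adjusted p 2.7e-16). Mir212 (NR_031925, chromosome 10, 62014702 to 62014812), its neighbour with the same 3p seed, was listed at 0 in both CON libraries and at 7.11 and 5.69 TPM after FSK, at least 13-fold higher than the level of 3 fragments over both CON libraries. That floor covers counting error only. Mir24-1 (NR_031827, chromosome 17, 823968 to 824035) was lower, at 6.47 and 7.81 TPM and 0.761 and 0.85 TPM, a change of −2.17 (SE 0.23, limma adjusted p 1.3e-08). On recovered fragments its adjusted p was weaker, 0.00035 in edgeR and 0.007 in DESeq2, and it stayed called.

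The falls were led by Txnip (NM_001008767, chromosome 2, 198683168 to 198686968), which binds thioredoxin and restrains glucose uptake. Txnip went from 55.9 and 52.9 TPM to 3.02 and 2.55 TPM, a change of −3.87 (SE 0.08, adjusted p 1.4e-22) in limma. WT cells started higher, at 329 and 312 TPM in CON, and stood at 19.7 and 19.5 TPM after FSK, and the difference between the responses was 0.09 (adjusted p 0.79). Its list held 6 tested genes, namely Txnip itself, arrestin-domain relatives and a regulator. Of these 4 were lower (66.7%, against 7.20% of all tested genes), among them Txnip, Arrdc3 at −1.67 and Arrdc2 at −1.13. Myc (NM_012603, chromosome 7, 102586313 to 102591239), a driver of growth and proliferation, went from 55.5 and 56.5 TPM to 5.26 and 5.6 TPM, a change of −3.15 (SE 0.05, adjusted p 6.6e-26), with replicates that nearly coincided. Bbs10 (NM_001109286, chromosome 7, 54031324 to 54034347), a chaperonin-like protein of the primary cilium, went from 12.2 and 10.5 TPM to 1.54 and 1.51 TPM, a change of −2.29 (SE 0.08, adjusted p 1.3e-18). Kctd11 (NM_001108831, chromosome 10, 56489552 to 56491715) stood at 9.99 and 10 TPM in CON and 1.29 and 1.25 TPM after FSK, a change of −2.28 (SE 0.09, adjusted p 7.9e-17). Snai2 (NM_013035, chromosome 11, 90404421 to 90406730), a transcriptional repressor, fell from 10.1 and 10.7 TPM to 1.72 and 1.4 TPM, a change of −2.16 (SE 0.14, adjusted p 2.2e-12). Exo5 (NM_001107973, chromosome 5, 139849930 to 139853247), an exonuclease, fell from 15.5 and 14.2 TPM to 3.17 and 2.84 TPM, a change of −1.98 (SE 0.08, adjusted p 3e-16). For all 9 falls described here both FSK libraries were below both CON libraries, as for all 740 lower genes and for 5874 of all 10275 tested genes.

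Islet transcription factors moved in both directions. Of 16 tested, 3 were lower (18.8%, against 7.20% of all genes) and 2 higher (12.5%, against 3.19%). Neurod1, a basic helix-loop-helix activator of the insulin gene, was abundant in CON at 215 and 221 TPM and stood at 59.9 and 55.5 TPM after FSK, a change of −1.90 (SE 0.05, adjusted p 1.4e-20) in limma. Isl1, a LIM homeodomain factor of islet cells, went from 139.6 and 139.9 TPM to 67.3 and 64.1 TPM, a change of −1.08 (SE 0.05, adjusted p 9.3e-15). Nkx2-2 and Foxa2 were higher at 0.75 and 0.64, and both missed the fold minimum with ERCC scaling (0.55 and 0.44). Pdx1, the homeodomain factor of beta cells, had 324 and 342 TPM and 407 and 409.7 TPM, a change of 0.29 under the fold minimum. None of the 16 tested genes for insulin and its granule was called. Ins1 had 38834 and 42395 TPM in CON and 43415 and 39501 TPM after FSK, a change of 0.03 (SE 0.05, adjusted p 0.68), and the groups overlapped.

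**Figure D3:**
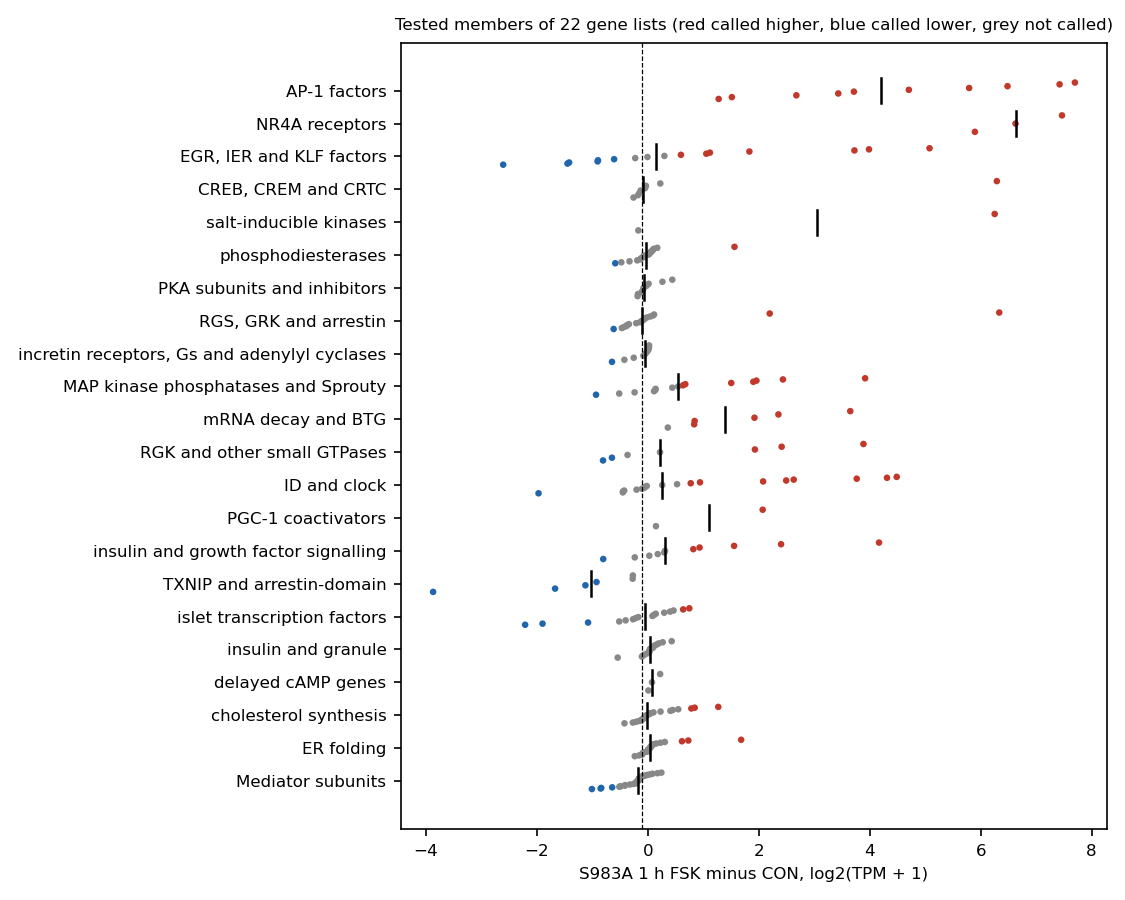
Change after 1 h FSK in Med14 S983A cells (horizontal axis, difference of group means of log2(TPM + 1)) for the tested members of 22 gene lists. Points are genes, red called higher, blue called lower and grey not called, black bars are list medians and the dashed line is the median of all tested genes at −0.11. The AP-1 and NR4A members lie to the right, and the PKA and the insulin and granule members sit around the dashed line.

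A large group of falls carried gene symbols made of Zfp and a number, which are given to zinc finger proteins, many of them repressors. This group was formed after the values were seen. Of 151 tested, 69 were lower (45.7%, against 7.20% of all tested genes) and 4 were higher (2.65%, against 3.19%). The median change was −0.55, against −0.11 over all genes. The median was −0.40 after centring and −0.72 with ERCC scaling. The lower count was 50 after centring and 97 with ERCC scaling, against 425 and 1504 of all 10275 tested genes. Zfp956 went from 14.8 and 14.2 TPM to 4.08 and 3.67 TPM, a change of −1.67 (SE 0.10, adjusted p 2.5e-13) in limma. Zfp133 and Zfp467 fell by 1.46 and 1.39. In WT cells, which share no library with these, 59 of the same 151 were lower after 1 h of FSK (39.1%, against 4.94% of all tested genes), with a median of −0.44. The difference between genotypes was called for 4 of the 151, all lower in S983A cells, against 0.769% of all tested genes in that direction.

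Lists of cholesterol synthesis and of ER folding held 13.6% and 13% of genes called higher, against 3.19% of all tested genes, and the Mediator list held 13.3% called lower, against 7.20%. Of 22 cholesterol synthesis genes, Insig1, a brake on the sterol pathway, was higher at 1.27, as were Idi1 at 0.84 and Cyp51 at 0.78. Cyp51 missed the fold minimum with ERCC scaling (0.58). Of 23 genes of ER folding and its stress response, Trib3, Ddit3 and Atf4 were higher, at 1.68, 0.73 and 0.61. These 3 belong to the integrated stress response and none of the chaperone genes of the list was called, and Ddit3 and Atf4 missed the fold minimum with ERCC scaling (0.53 and 0.41). Of 30 tested Mediator subunits, Med9, Med18, Med7 and Med17 were lower, at −1.01, −0.85, −0.84 and −0.64. Med9 stood at 46.5 and 46.9 TPM in CON and 24.4 and 21.1 TPM after FSK. With ERCC scaling 8 Mediator subunits were lower, and 3 after centring, against 1504 and 425 of all 10275 tested genes. None of the 3 delayed cAMP genes, Kdr, Plat and Osbpl6, was called. Kdr stood under 1 TPM in both groups, where the pseudocount can keep a several-fold change under the fold minimum. Its missing call thus does not show that it failed to rise.

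Genes that changed differed in structure from the rest, a description made after values were seen. Of the 328 higher genes 8.54% had a transcript of a single exon, and of the 740 lower genes 7.03%, against 2.69% of all tested. The median span from start to end on rn6 was 8843 bases for higher genes and 10259 bases for lower genes, against 20782 bases for all tested. Exon lengths differed little, with medians of 2046, 2179 and 2142 bases. For motifs, only 258 of the 328 higher genes (78.7%) had a promoter window, under the 80% set as the minimum, so the comparison of CRE shares is void for them. Of 627 windows of lower genes 27.4% held a CRE core, 3.19% the full element and 1.44% the AP-1 site TGACTCA. The shares over windows of all tested genes were 33.4%, 3.38% and 3.23%.

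The same 1 h of FSK in WT cells raised 260 genes (2.53%) and lowered 508 (4.94%). Most calls were shared, and the 2 responses use different libraries. Of the 328 genes higher in Med14 S983A cells, 232 were also higher in WT, 70.7% of the S983A list and 89.2% of the WT list. For falls 420 were shared, 56.8% of the S983A list and 82.7% of the WT list, and no gene was called in opposite directions. Across 10275 genes, which are not independent, Pearson r between the responses was 0.911 and Spearman's rank correlation 0.789. The difference between the responses, tested as an interaction, was called higher for 90 genes (0.876%) and lower for 79 (0.769%) in S983A cells. With ERCC scaling this split was 48 and 250. Of the 96 genes called higher in S983A cells alone, 27 had a called difference, and of the 320 called lower alone, 20 had one. Control levels differed as well, since 852 genes were higher and 1145 lower in S983A CON than in WT CON. The part of differences between lines in this was not tested.

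**Figure D4:**
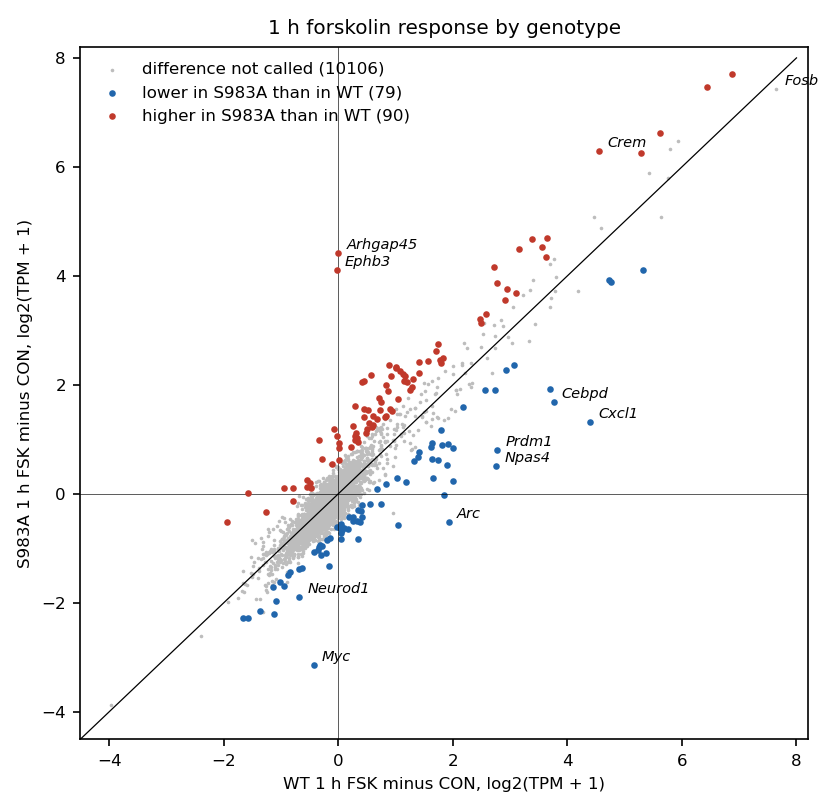
Change after 1 h FSK in Med14 S983A cells (vertical axis) against that in WT cells (horizontal axis), both as differences of group means of log2(TPM + 1), for 10275 genes. Red points had a called difference upwards in S983A (90), blue points downwards (79), grey points none, and the line marks equal changes. Arhgap45 and Ephb3 lie near 0 in WT and above 4 in S983A, and Myc lies at −0.43 in WT and −3.15 in S983A.

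Among cAMP feedback genes the rise was larger in S983A cells for several. Crem went from 11.7 and 10.6 TPM to 289.8 and 276 TPM in WT, and its log2 change was larger in S983A cells by 1.74 (SE 0.12, adjusted p 4.9e-11) in limma. The level after FSK was higher and the CON level lower in S983A than in WT. Differences of the same direction were called for Nr4a1 (1.03), Nr4a3 (1.02), Sik1 (0.96), Fosl2 (0.83), Maff (1.06) and Sstr1 (1.29). For Nr4a1 the WT levels were 17.3 and 18.4 TPM in CON and 1578 and 1671 TPM after FSK, so its larger change in S983A cells came with a lower CON level and not with a higher level after FSK. The differences for Fosb (−0.22, adjusted p 0.38) and Fos (0.04, adjusted p 0.93) were not called by limma.

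Arhgap45, a gene of a GTPase activating protein, and Ephb3, a receptor of ephrin-B ligands, rose in S983A cells, with log2 changes of 0.00 and −0.03 in WT. Arhgap45 stood at 0.136 and 0.263 TPM in S983A CON and 24.1 and 25.3 TPM after FSK, against 0.0110 and 0.0180 TPM and 0.0110 and 0.0230 TPM in WT, a difference of 4.42 (SE 0.14, adjusted p 6.7e-18) in limma. Ephb3 stood at 1.67 and 2.18 TPM and 46.1 and 52.4 TPM in S983A cells, against 1.17 and 1.08 TPM and 0.971 and 1.2 TPM in WT, a difference of 4.13 (SE 0.12, adjusted p 1.3e-18). Of 12 tested ephrins and Eph receptors, a list formed after values were seen, Efnb1, Efnb2, Epha2 and Ephb3 were higher in S983A cells, and each also had a called difference (0.876% of all tested genes had one in that direction). The difference for Efnb2 (0.81) was lost without WT CON replicate 1 (0.68), S983A CON replicate 2 (0.70) or S983A FSK replicate 2 (0.73). It also missed the threshold with a pseudocount of 0.1 (adjusted p 0.068 in limma), with no filter (0.052), in edgeR (0.12), in DESeq2 (0.095) and in DESeq2 with ERCC size factors (0.16). Errfi1, an inhibitor of the EGF receptor, went from 45.8 and 46.3 TPM to 187 and 203 TPM in S983A cells and from 33.7 and 33.2 TPM to 45.5 and 44.1 TPM in WT, a difference of 1.65 (SE 0.06, adjusted p 1.6e-15). Cdkn1a, the cell cycle inhibitor p21, differed by 1.61 (SE 0.08, adjusted p 6.4e-13), from a CON level of 6.3 and 5.99 TPM in S983A and 25.1 and 23 TPM in WT. Bag3, a co-chaperone, differed by 1.60 (SE 0.08, adjusted p 4.8e-13).

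Other genes had a response that was shifted downwards in S983A cells. Myc stood at 69.4 and 70.5 TPM in WT CON and 52 and 51.5 TPM after FSK, a smaller fall than in S983A cells, with a difference of −2.72 (SE 0.07, adjusted p 1.2e-19) in limma. Neurod1 went from 234 and 214 TPM to 141 and 136 TPM in WT, a difference of −1.21 (SE 0.07, adjusted p 7.2e-12). The difference for Isl1 was −0.86, while Foxa2 differed in the other direction, by 0.91. Cxcl1, a neutrophil chemokine, stood at 0.156 and 0.312 TPM in S983A CON and 2.35 and 1.8 TPM after FSK, against 0.501 and 0.56 TPM and 31.4 and 31.1 TPM in WT, a difference of −3.08 (SE 0.16, adjusted p 6.4e-13). Arc, an immediate early gene of neurons, rose from 11 and 11.2 TPM to 45.2 and 44.7 TPM in WT and stood at 10.6 and 11.9 TPM and 7.15 and 8.02 TPM in S983A cells, a difference of −2.44 (SE 0.11, adjusted p 6.5e-14). Npas4, an activity-dependent factor, reached 9.6 and 9.45 TPM after FSK in WT and 1.15 and 0.924 TPM in S983A cells, a difference of −2.26 (SE 0.13, adjusted p 7.2e-12). Cebpd, a bZIP factor, reached 110.0 and 109 TPM in WT and 27.5 and 26.4 TPM in S983A cells, a difference of −2.08 (SE 0.11, adjusted p 7.9e-13). Prdm1, the repressor BLIMP1, reached 9.92 and 9.69 TPM in WT and 1.02 and 0.988 TPM in S983A cells, a difference of −1.97 (SE 0.12, adjusted p 5.7e-12). For the genes with levels given here the FSK libraries of the genotypes did not overlap, which concerns levels after FSK and not responses. Most of these genes were named for large differences in the same libraries, so the lack of overlap adds no support. The share over all tested genes was not counted.

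Feedback genes of other pathways also split. Dusp1 rose in both genotypes and less in S983A cells (−0.81), as did Dusp10 (−1.0), Spry1 (−0.83), Gem (−1.77) and Rasd1 (−0.88). Dusp4 (0.87), Dusp5 (0.68), Rem2 (1.01) and Rgs16 (1.07) differed upwards. Of 17 tested genes of the NF-kB pathway, a list formed after values were seen, 5 had a called difference and all 5 were lower in S983A cells, against 0.769% of all tested genes in that direction. These were Cxcl1, the inhibitor genes Nfkbia (−0.75) and Nfkbiz (−0.89), the cytokine gene Csf1 (−0.76) and Cd83 (−0.64), which missed the fold minimum without S983A FSK replicate 1 (−0.57). Nfkbia stood at 23.6 and 25.4 TPM in S983A CON and 21.7 and 20.9 TPM after FSK, against 28.5 and 27.3 TPM and 42 and 41 TPM in WT. Kdr, a delayed cAMP gene, rose from 0.399 and 0.41 TPM to 2.39 and 2.02 TPM in WT. In S983A cells it went from 0.0810 and 0.0430 TPM to 0.243 and 0.232 TPM, also upwards. At such levels near 0 the pseudocount understates the change. The difference on the log2(TPM + 1) scale was −0.97 (SE 0.12, adjusted p 5e-06) in limma, and it thus does not show that the rise was absent in S983A cells.

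The agents were compared directly in Med14 S983A cells at 1 h, since both share the CON libraries. With Ex-4, 149 genes were higher (1.45%) and 162 lower (1.58%) than with FSK. The higher count was 93 after centring and 400 with ERCC scaling, and 249 with a pseudocount of 0.1. All 15 named rises were lower with Ex-4 and all 9 falls described here were higher, in a comparison that shares the 1 h FSK libraries with the one that named them. Fosb reached 18.7 and 20.3 TPM with Ex-4 against 208 and 211 TPM with FSK, a difference of −3.36 (SE 0.08, adjusted p 1.8e-19) in limma. The differences were −2.96 for Klf4, −2.82 for Junb and −2.80 for Rasl11a, a Ras-like GTPase gene, and Crem was closer at −0.94. Txnip stood at 8.95 and 9.45 TPM with Ex-4, a difference of 1.43 (SE 0.08, adjusted p 1.2e-12). Bbs10 and Rbm48, an RNA-binding protein gene, differed by 1.32 and 1.25. Pde4b, a cAMP phosphodiesterase gene, had 3.49 and 3.4 TPM in CON, 2.14 and 2.23 TPM with FSK and 6.98 and 6.46 TPM with Ex-4, a difference between agents of 1.28 (SE 0.08, adjusted p 1e-11). The doses of 10 nM and 10 µM act on different proteins and are not matched in strength.

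Levels at 8 h of FSK were compared with those at 1 h in the same line, again with the 1 h FSK libraries that named the genes. At 8 h 1450 genes were higher (14.1%) and 2937 lower (28.6%) than at 1 h. Of the 15 named rises, 14 were lower at 8 h than at 1 h. Fosb went to 2.25 and 2.23 TPM, a difference of −6.02 (SE 0.08, adjusted p 2.3e-26) in limma, and Nr4a1 to 70.1 and 60.5 TPM, a difference of −4.41. Crem remained at 209 and 208 TPM at 8 h and 95 and 97.9 TPM at 16 h, far above its CON level of 5.48 and 3.97 TPM. Maff was at 45.6 and 46.5 TPM at 8 h. Fst was the exception, with 132 and 132 TPM at 8 h and a difference from 1 h of 1.13 (SE 0.09, adjusted p 7.2e-12). Ephb3 also stayed high at 65 and 62.4 TPM and 52.3 and 48.9 TPM at 8 h and 16 h.

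Of 9 named falls, 6 were higher at 8 h than at 1 h and 1 was lower still. Myc returned to 76.9 and 75.2 TPM at 8 h, a difference of 3.58 (SE 0.05, adjusted p 9.6e-27) in limma, and stood at 146 and 148 TPM at 16 h, above its CON level of 55.5 and 56.5 TPM. Klf6 returned in part, to 15.5 and 16.2 TPM at 8 h. Txnip stayed at 3.04 and 2.88 TPM, with a difference from 1 h of 0.07 and an adjusted p of 0.47. Nr1d1 fell further, to 1.98 and 2.23 TPM at 8 h, a difference of −1.13 (SE 0.08, adjusted p 4.5e-12), and stood at 12.2 and 14 TPM at 16 h. Neurod1, outside these 9, stood at 23.1 and 23 TPM at 8 h and 29.6 and 29.9 TPM at 16 h, and its difference between 8 h and 1 h was −1.29 (SE 0.05, adjusted p 1.1e-17). Later courses thus differed between genes that fell at 1 h.

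**Figure D5:**
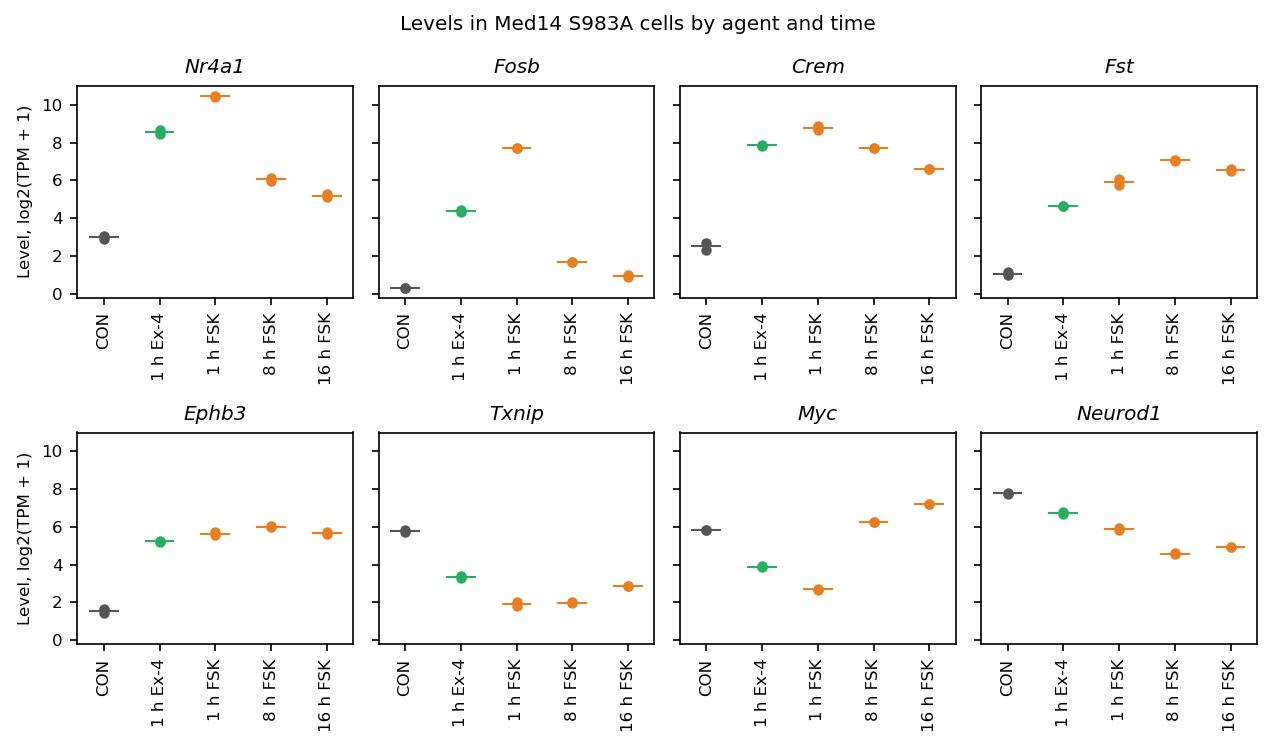
Level of 8 genes in Med14 S983A cells as log2(TPM + 1) in CON (grey), after 1 h Ex-4 (green) and after 1, 8 and 16 h FSK (orange). Points are libraries and bars are group means. Nr4a1 and Fosb peak at 1 h FSK, Fst and Ephb3 stay high at 8 h and 16 h, Myc dips at 1 h and exceeds CON at 16 h, and Neurod1 is lower at 8 h and 16 h than at 1 h.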

How the data were processed

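RNA-seq libraries were made from total RNA with ERCC spike-ins added to a fixed RNA mass, with a strand-specific kit. The authors aligned paired reads with STAR 2.5.3a to rn6 plus ERCC sequences and deposited TPM per RefSeq transcript from HOMER 4.11.1 and raw counts of the 92 ERCC sequences. Their DESeq2 1.24.0 gene counts were not used here. As TPM are no counts, limma 3.58.1 (R 4.3.3) was fitted on log2(TPM + 1) of all 28 libraries, with 1 mean per group of 14 and 14 residual degrees of freedom. Adjusted p-values are Benjamini-Hochberg values from two-sided limma tests over 10275 genes, those whose mean over all libraries reached 1 TPM. The transcript with the highest mean stood for each of 17455 symbols. Calls needed an adjusted p under 0.05 and a fold above 1.5, and the pseudocount understates changes of low genes. Whole reads were recovered from the TPM. Of 105446 low values, 100% lay within 0.05 reads plus the rounding error of the TPM, against 20.1% by chance. On the recovered fragments edgeR 4.0.16 and DESeq2 1.42.0 were run as added alternatives, with edgeR calling 462 higher and 637 lower.

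Named genes were the 15 largest rises and 10 largest falls reaching 5 TPM, the 6 largest genotype differences and 4 largest agent differences each way, and listed genes; some of these are not reported here. Members and lists were chosen with earlier results of these data known. Simulated counts for S983A 1 h FSK against CON (10275 genes, 200 changed) gave 100 of 100 genes at 2-fold and 100 of 100 at 3-fold, with 1 call among unchanged genes. The changed genes had a mean of at least 5 TPM and were split evenly between rises and falls. All simulated libraries shared the same base profile. Recovery of low genes and calls under a shift in composition were thus not tested. Promoter windows and microRNA sequences came from RefSeq (GRCr8), and windows of Fos, Nr4a3, Fst, Txnip, Myc and Mir132 were not analysed here. Gene coordinates are those of the deposited rn6 table.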

Additional observations from a re-analysis of the deposited data

Results flagged for a closer look

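The response to 1 h of FSK differed between genotypes, by the interaction test in limma with Benjamini-Hochberg adjustment, for 90 genes upwards and 79 downwards in Med14 S983A cells. The largest upward differences on the log2 scale were 4.42 for Arhgap45, 4.13 for Ephb3, 1.74 for Crem, 1.65 for Errfi1, 1.61 for Cdkn1a and 1.60 for Bag3. The largest downward differences were −3.08 for Cxcl1, −2.72 for Myc, −2.44 for Arc, −2.26 for Npas4, −2.08 for Cebpd and −1.97 for Prdm1. Of the 90 genes, 39 had a lower and 4 a higher level in S983A CON than in WT CON. Of the 79 genes, 6 had a lower and 18 a higher level. Which knock-in line each library came from is not given in the sources used here, and the part of differences between lines was not tested.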

How the results depend on the processing

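Of 325 named results, 6389 comparisons with an alternative gave 6065 with the same call, 243 that newly passed, 81 that no longer passed and 0 that changed direction. With no fold minimum 925 genes were higher and 4463 lower after FSK, the genotype difference was called for 299 and 301, Ex-4 against FSK for 2421 and 465, and 8 h against 1 h for 3519 and 5039. DESeq2 on recovered fragments called 499 higher. Centring gave 425 lower after FSK and 93 higher for Ex-4 against FSK, where a pseudocount of 0.1 gave 249. ERCC scaling gave 1504 lower after FSK, 48 and 250 for the genotype difference, and 400 higher for Ex-4 against FSK. DESeq2 with ERCC size factors gave 1920, 49 and 410, and 646. ERCC scaling gave 1661 lower without CON replicate 1, 1430 without CON replicate 2, 1117 without FSK replicate 1 and 2212 without FSK replicate 2. The cause was not tested. Leaving out 1 library at a time gave 302 to 375 higher and 723 to 796 lower after FSK, 73 to 128 and 69 to 86 for the genotype difference, 131 to 186 and 146 to 185 for the agents, and 1376 to 1542 and 2893 to 2964 for the times. The fold minimum was missed after leaving out 1 library by Klf5 (−0.58 and −0.57 without CON replicate 1 and FSK replicate 1), Klf9 (0.57 and 0.56 without CON replicate 1 and FSK replicate 2), Pde4c (−0.58 and −0.53 without CON replicate 2 and FSK replicate 1), Rgs14 and Spry2 (−0.56 and 0.58 without FSK replicate 2), Foxa2 (0.58 without CON replicate 1) and Atf4 (0.58 and 0.52 without CON replicate 2 and FSK replicate 2). Dusp10 and Spry2 missed it with ERCC scaling (0.44 and 0.49), and Med17 and Csf1 after centring.

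With the replicate block the counts were 328 and 740, 91 and 79, 149 and 162, and 1450 and 2937. The numbers share no stated batch, and replicate differences correlated at −0.24 for S983A CON and FSK and 0.14 for the WT pair, so they did not pair the samples. The crossed replicate block, chosen after seeing the data, gave 328 and 740. The ERCC fits without 1 library were also added after seeing the data. DESeq2 gave no adjusted p for the genotype differences of Cxcl1 and Npas4 with ERCC size factors. Motif shares of higher genes were not run under alternatives. With 2 libraries per group, changes under the fold minimum are weakly resolved.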
